A study of Oryzias latipes with 60 samples.

Results

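Cisplatin at 70 µM was compared with saline, its vehicle, in young medaka (Oryzias latipes), freshwater fish of small size, that carry xmrk as a transgene. The comparison took the 10 transgenic cisplatin fish (numbers 20 to 26, 28, 31 and 32) and the 5 transgenic saline fish (numbers 14 to 18), 15 of the 60 fish of the series. It was repeated on the 8 cisplatin and 4 saline fish that remain without numbers 17, 21 and 31, whose normalization factors were below 0.8. Poly-A RNA was sequenced from whole fish aged 3 to 4 weeks and about 10 mm long. The labels place the drug and vehicle fish in petri dishes for 5 days. The other groups used here were wild-type saline fish (n = 5) and wild-type cisplatin fish at the same dose (n = 5), transgenic fish in DMSO (n = 5) or under trametinib at 20 nM (n = 10), and the wild-type DMSO (n = 5) and trametinib (n = 5) fish. Untreated fish, 5 transgenic and 5 wild type, stayed in ordinary housing and had neither vehicle nor dish. The promoter that drives the transgene, the number of founder lines, and which fish shared a dish are not stated in the labels. A dish or handling effect therefore cannot be told apart from the drug, and p-values measure only the spread between fish.

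Cisplatin is a platinum compound used against solid tumours. It binds DNA and links neighbouring bases, which blocks replication and transcription and sets off the DNA damage response. Kidney tubule cells and the sensory hair cells of the inner ear and, in fish, the lateral line are known to be sensitive to it. xmrk is an altered copy of the epidermal growth factor receptor gene from Xiphophorus fish that signals without its ligand and drives pigment cell tumours. Trametinib inhibits the kinase MEK in the pathway downstream of that receptor. The count table names genes by Ensembl identifiers alone, and 0 of its 20459 identifiers matched the RefSeq gene table at hand. Nothing is therefore said about what a gene encodes, neither the transgene nor any cell type marker was looked up, and no check of genotype by xmrk reads was made.

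Total counts of the 15 libraries ran from 38079639 to 67018564. Fish 17, 21 and 31 stood apart in composition. Their TMM factors, which scale a library by the bulk of its genes, were 0.274, 0.337 and 0.711 against 1.02 to 1.40 in the other 12 fish. They detected 17788, 17959 and 18831 genes against 19220 to 19416, and their 100 most abundant genes took 55.7%, 54.3% and 44.4% of the counts against 31.3% to 39.6%. As 1 of these fish was in saline and the other two were under cisplatin, the groups did not separate by these measures. The TMM factor averaged 1.13 ± 0.337 (SD, n = 10) under cisplatin and 1.04 ± 0.446 (n = 5) in saline, and no test among total counts, TMM factor, genes detected and the share of the 10 most abundant genes passed (two-sided exact permutation p = 0.492 to 0.850, adjusted p = 0.850 for each of the 4). Without the 3 fish the same tests did not pass either (p = 0.263 to 0.873, adjusted p = 0.873 for each of the 4). The 3 fish widened the spread instead. The median SD between fish over 15854 genes, on the log2(CPM + 0.1) scale, was 0.825 in saline and 0.648 under cisplatin with them, and 0.285 and 0.222 without them. The calls and fold changes of the cisplatin comparison are given with and without these fish.

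Few genes were called as different between cisplatin and saline in transgenic fish, and most of those called were lower under cisplatin. With all 15 fish, edgeR's quasi-likelihood test called 63 of 18690 genes (0.337%) at a Benjamini-Hochberg adjusted p under 0.05, of which 13 were higher and 50 lower and 61 differed at least 2-fold. In all, 1551 genes lay under an unadjusted p of 0.05. The number called depended on the fish used and ran from 30 to 714 with 1 fish left out, so genes not called may still differ. Without fish 17, 21 and 31 the test called 202 of 18725 genes (1.08%), 29 higher and 173 lower, with 105 that differed by 2-fold or more. The 2 lists had 50 genes in common, 12 higher and 38 lower, which are 79.4% of the first list and 24.8% of the second. The 13 genes lost without the 3 fish, 1 higher and 12 lower, all kept their sign, and the 152 new calls were 17 higher and 135 lower. Over all genes tested, 55.7% were higher under cisplatin with a median log2 fold change of 0.05, so the excess of lower calls was not shared by genes in general. The wild-type saline and cisplatin fish were part of both fits and shared the estimate of the spread, which makes 25 and 22 fish. In whole-fish RNA, fewer cells of a type and less RNA per cell cannot be told apart.

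The gene with the largest rise, ENSORLG00000021053, was close to absent in saline and present under cisplatin. In CPM, read counts relative to library size and scaled with the TMM factors of all 60 libraries, it stood at 0, 0.0341, 0.0522, 0 and 0.236 in saline fish 14 to 18. Under cisplatin it ran from 0.436 to 40.8 with a median of 2.15, and fish 21 alone held the 40.8 while the other 9 were at 3.86 or less. All cisplatin fish were thus above the highest saline fish, but the 2 zeros allow up to 0.0449 CPM in fish 14 and 0.339 CPM in fish 17, counting error only, and both limits are under the lowest cisplatin value. The log2 fold change was 6.32 (SE 1.29, adjusted p = 0.0266) with all fish, 4.79 without fish 21, 7.68 without fish 18, and 4.71 (SE 0.90, adjusted p = 0.00946) without fish 17, 21 and 31. Its call with all fish was lost with the 2 compared groups fitted alone (adjusted p = 0.169) and without any 1 of saline fish 14, 15, 16 and 17 (adjusted p = 0.0561 to 0.0895). In the 22 fish it was lost with limma-voom (adjusted p = 0.0715) and without saline fish 16 (adjusted p = 0.0568).

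ENSORLG00000000284 rose 5.54-fold. Saline fish 14 to 18 stood at 1.496, 1.60, 1.08, 0.113 and 1.30 CPM. The 0.113 in fish 17 came from 1 read, and 3 reads make 0.339 CPM in that library. The cisplatin fish ran from 2.92 to 9.26 CPM with a median of 7.04. No cisplatin fish reached down to the saline range, and the lowest cisplatin values belonged to fish 21 (2.92) and 31 (3.06) as the lowest saline value belonged to fish 17. The log2 fold change was 2.47 (SE 0.37, adjusted p = 0.00338), and 2.40 (SE 0.23, adjusted p = 3.75e-06) without the 3 fish. It was called in every setting tried for either fit.

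A second pair of rises came from the rule for the 22-fish fit. ENSORLG00000003970 was at 46.7, 32.7, 27.5, 15.3 and 50.1 CPM in saline fish 14 to 18 and at 58.9 to 326 with a median of 201 under cisplatin (log2 fold change 2.34, SE 0.41, adjusted p = 0.00817, and 2.05, SE 0.44, adjusted p = 0.022 without the 3 fish). ENSORLG00000018385 was at 21.2, 29.7, 33.3, 21.0 and 35.8 CPM in saline and at 44.9 to 286 with a median of 114 under cisplatin (log2 fold change 2.17, SE 0.38, adjusted p = 0.00725, and 1.803, SE 0.35, adjusted p = 0.0101 without the 3 fish). For both genes the groups did not overlap. Both calls were lost when the 2 compared groups were fitted alone (adjusted p = 0.0848 and 0.0625). In the 22 fish the call of ENSORLG00000003970 was also lost without any 1 of saline fish 14, 15, 16 and 18 (adjusted p = 0.0507 to 0.135).

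ENSORLG00000009297 fell from levels that differed widely between saline fish. It was high in fish 14, 16 and 18 (203, 190 and 326 CPM) and much lower in fish 15 and 17 (15.1 and 11.5 CPM). Under cisplatin it ran from 1.48 to 26.4 CPM with a median of 5.81. The groups overlapped through cisplatin fish 31 alone, which held the 26.4 while the other 9 were at 9.68 or less. The log2 fold change was -4.32 (SE 0.75, adjusted p = 0.00764), and -5.17 (SE 0.80, adjusted p = 0.00213) without the 3 fish, and the gene was called in every setting tried.

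ENSORLG00000006161 stood at 1.72, 1.02, 3.52, 1.58 and 23.1 CPM in saline fish 14 to 18 and at 0.0839 to 0.783 with a median of 0.261 under cisplatin. The groups did not overlap, but saline fish 18 was far above the other 4 saline fish. The log2 fold change of -4.19 (SE 0.72, adjusted p = 0.00725) became -2.55 without fish 18, where the call was lost (adjusted p = 0.0971). In the 22 fish it was -4.33 (SE 0.83, adjusted p = 0.0114), and -2.51 (adjusted p = 0.159) without fish 18, and the call was also lost with limma-voom (adjusted p = 0.0654).

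ENSORLG00000000017 and ENSORLG00000019009 fell as well. The first was at 27.03, 11.1, 14.6, 6.78 and 18.0 CPM in saline fish 14 to 18 and at 0.797 to 3.54 with a median of 1.66 under cisplatin, with no overlap (log2 fold change -3.19, SE 0.32, adjusted p = 1.1e-05, and -3.50, SE 0.28, adjusted p = 2.76e-07 without the 3 fish). It was called in every setting. The second was at 7.31, 6.1999, 6.42 and 6.35 CPM in saline fish 14, 15, 16 and 18 and at 0.339 (3 reads) in fish 17, against 0 to 1.04 with a median of 0.837 under cisplatin. Only saline fish 17 lay within the cisplatin range, and the zero in fish 21 allows up to 0.266 CPM. Its log2 fold change was -2.94 (SE 0.43, adjusted p = 0.00338) with all fish and -3.04 (SE 0.19, adjusted p = 3.46e-09) without the 3 fish, and the 25-fish call was lost with the 2 compared groups fitted alone (adjusted p = 0.0561).

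**Figure D1:**
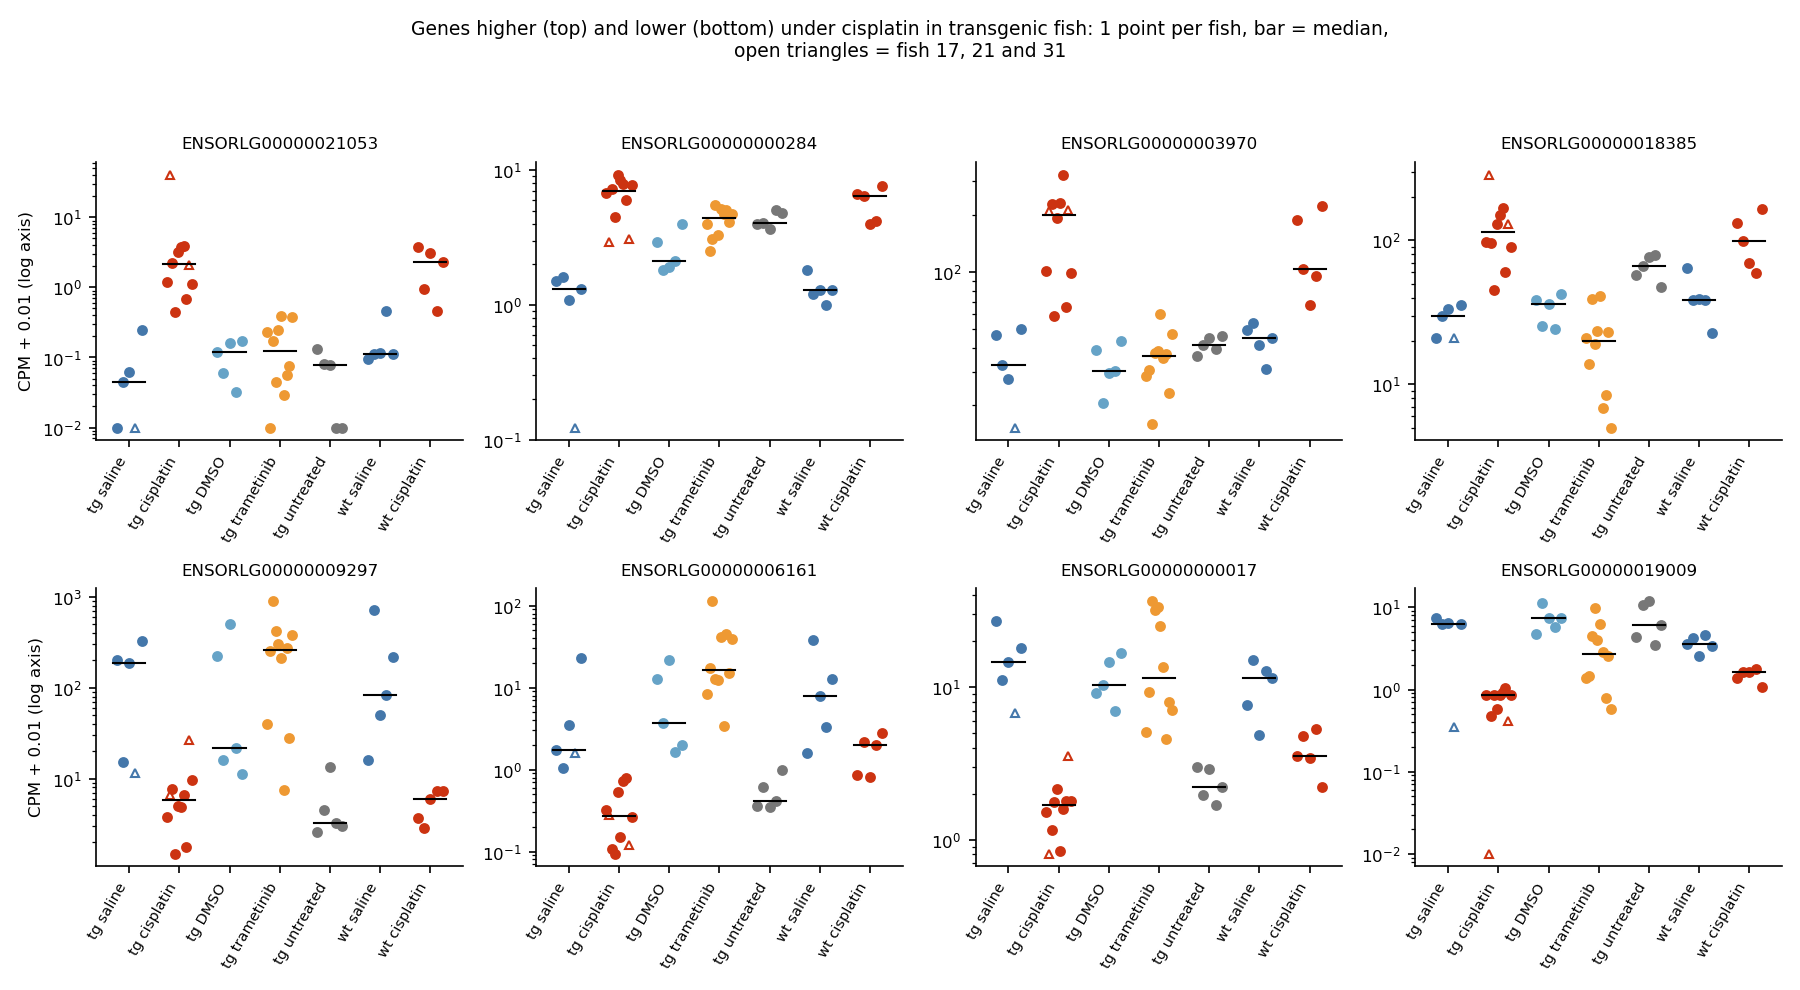
CPM plus 0.01 (log axis) of the 4 named genes that rose (top) and the 4 that fell (bottom), with 1 point per fish, a bar at the median, and open triangles for fish 17, 21 and 31, in the 5 transgenic groups and the wild-type saline and cisplatin groups. ENSORLG00000021053 stands at 40.8 CPM in cisplatin fish 21 and at 3.86 or less in the other 9, and ENSORLG00000000017 lies at 3.54 CPM or less in all transgenic cisplatin fish and at 3.00 CPM or less in untreated transgenic fish.

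The 50 genes called with and without the 3 fish changed by more than 2-fold at their medians. The 12 rises had log2 fold changes of 0.95 to 6.32 with a median of 1.42 in the 25 fish, and of 0.76 to 4.71 with a median of 1.15 in the 22 fish. The 38 falls ran from -5.57 to -0.95 with a median of -1.71, and from -5.74 to -0.79 with a median of -1.56. These values chose the genes and describe them only. Called genes came from all levels of read count. In the 25 fish the 6230 genes with the fewest reads, the 6230 intermediate and the 6230 with the most held 20, 23 and 20 calls, and in the 22 fish 51, 65 and 86.

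Full separation of the groups was rare. Over all 18690 genes, 21 (0.112%) had all 10 cisplatin fish above all 5 saline fish and 41 (0.219%) had them all below. Of the 63 called genes, 10 rises and 21 falls separated in this way, and of the 50 genes 9 and 18. Among the 8 cisplatin and 4 saline fish left without the 3, separation was found for 10 of the 12 rises and 30 of the 38 falls. Of all 18690 genes, 98 separated above and 326 below in these fish. The same fish chose the called genes, so their separation describes them and is no test. Leaving out each of the 15 fish in turn left 16 of the 63 genes called every time, 4 rises and 12 falls. Over 9 other settings 13 were called every time, and 10 genes (2 rises and 8 falls) passed all of these. The plot of calls by setting shows the same lean to lower calls in every setting.

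**Figure D2:**
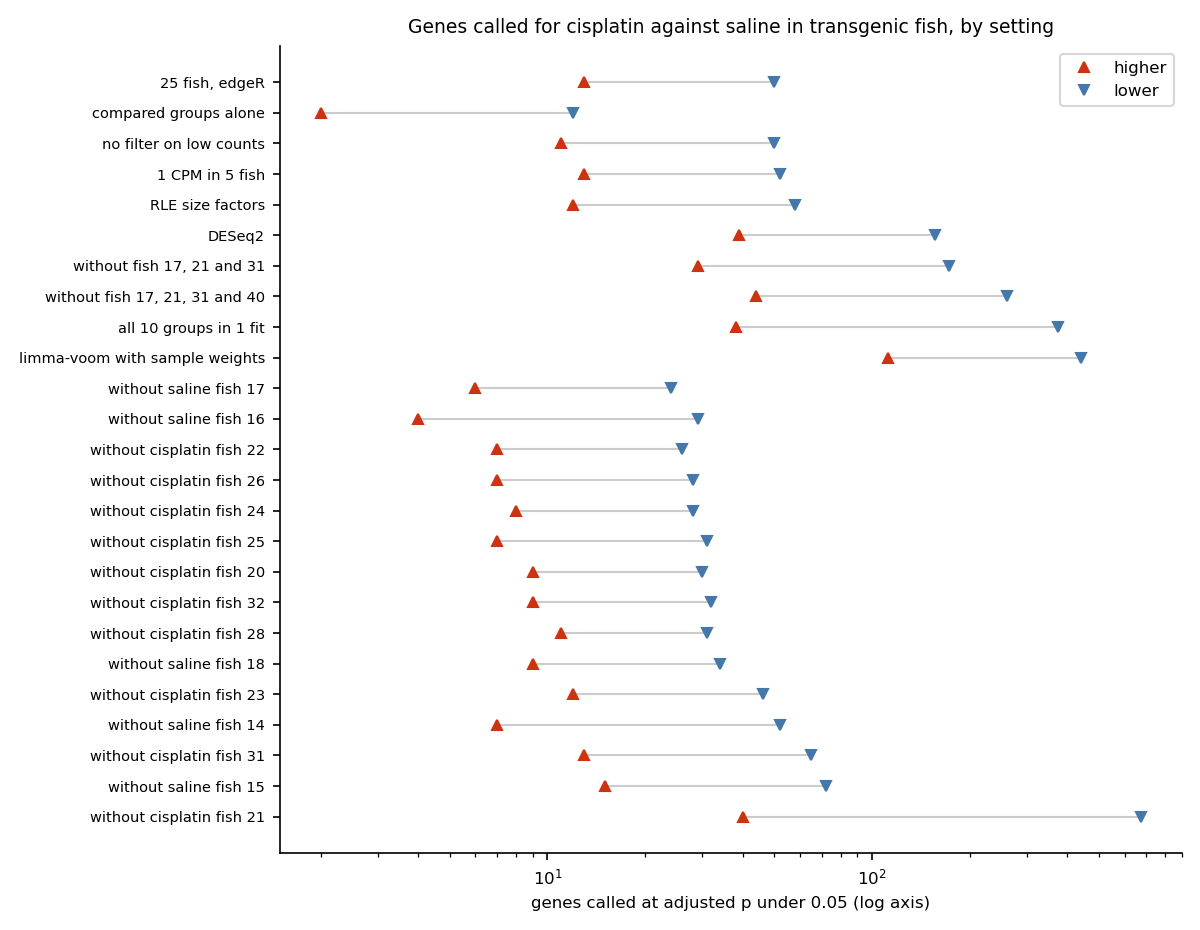
Number of genes called higher (triangle up) and lower (triangle down) under cisplatin at an adjusted p under 0.05, on a log axis, in the 25-fish fit, 9 other settings and with each of the 15 transgenic fish left out. Lower calls outnumber higher calls on every line, from 12 against 2 with the compared groups alone to 674 against 40 without cisplatin fish 21.

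Fish under cisplatin were not alike in how far these genes moved. Each fish was placed, per gene, on a scale where 0 is the mean log2(CPM + 0.1) of saline fish 14, 15, 16 and 18 and 1 that of the 8 cisplatin fish, and the median over the genes was taken. For the 12 rises, cisplatin fish lay between 0.451 and 1.36 with a median of 1.11. Fish 23 (0.451) and fish 28 (0.631) were lowest, and these 2 fish also had the lowest levels of ENSORLG00000003970, ENSORLG00000018385 and ENSORLG00000021053 among the 10. Their TMM factors were 1.12 and 1.26, and they detected 19416 genes, the most of the 15, and 19352. Both factors were within the range of the other fish without low factors, saline fish included. Among the 8 cisplatin fish without low factors, fish 23 had the lowest factor. Its 100 most abundant genes took 37.2% of the counts, the highest share of those 8. The part of composition in the positions was not tested. For the 38 falls, fish 31 (0.602) and 23 (0.690) were lowest and the other 8 lay between 0.932 and 1.19. The scale was built on the same genes and fish, so the distance between the groups is no finding. Fish 17, 21 and 31 had no part in setting 0 and 1, though they helped to choose the genes. Fish 21 stood at 1.23 and 1.06 and fish 31 at 1.10 and 0.602 for rises and falls, and saline fish 17 at -0.708 and -0.0547.

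**Figure D3:**
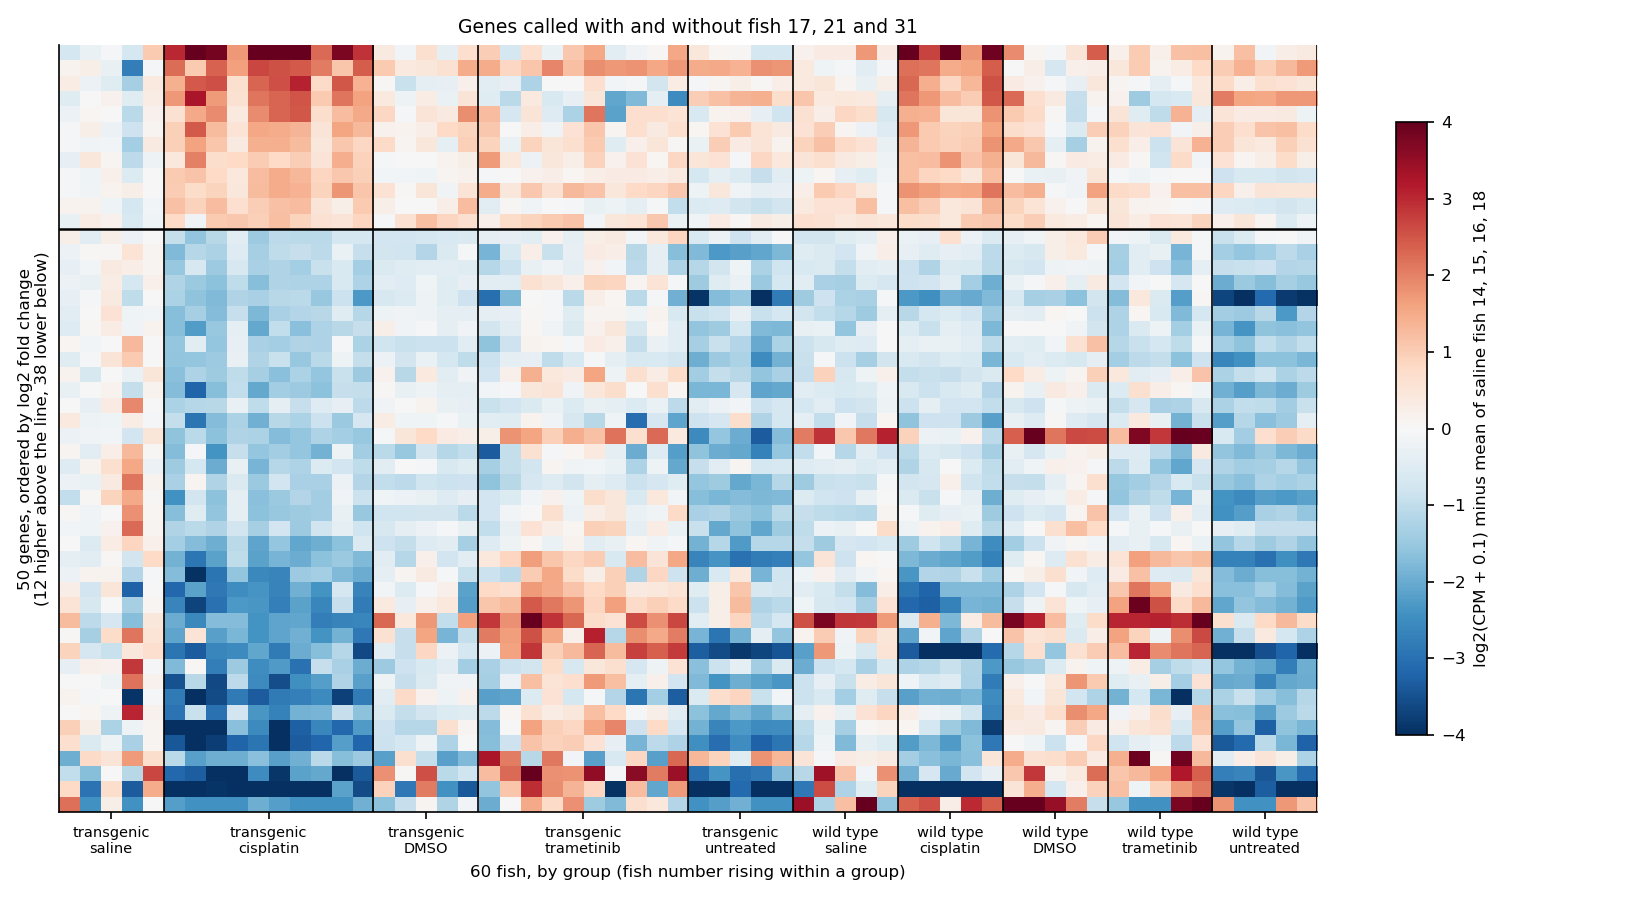
Colours give log2(CPM + 0.1) minus the mean of transgenic saline fish 14, 15, 16 and 18 for the 50 genes called in both fits (rows, 12 higher above the line and 38 lower below) in all 60 fish (columns, by group), clipped at 4 in either direction. The lower block is mostly blue in transgenic cisplatin fish and also in untreated fish of both genotypes, while the upper block is red mainly in cisplatin fish.

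Most genes that fell under cisplatin were low in untreated fish as well. On the same scale, untreated transgenic fish lay at 0.759 to 1.04 (median 0.855, n = 5) for the 38 falls, next to the cisplatin fish, and at -0.0896 to 0.398 (median 0.150) for the 12 rises, next to saline. ENSORLG00000000017 was at 2.35 CPM ± 0.581 (SD, n = 5) in untreated transgenic fish, 1.68 ± 0.782 (n = 10) under cisplatin and 15.5 ± 7.67 (n = 5) in saline. ENSORLG00000009297 was at 5.38 ± 4.63, 7.39 ± 7.14 and 149 ± 135 CPM in the same groups. ENSORLG00000019009 went against this, with 7.31 ± 3.80 CPM untreated and 5.33 ± 2.82 in saline. Among the 38 falls, ENSORLG00000019174, ENSORLG00000019168 and ENSORLG00000003919 also had a higher mean CPM in untreated transgenic fish than in saline. Of the rises, ENSORLG00000000284 was intermediate in untreated fish, at 4.32 ± 0.590 CPM against 1.12 ± 0.596 in saline and 6.39 ± 2.22 under cisplatin, whereas ENSORLG00000021053 (0.0521 ± 0.0520 CPM) and ENSORLG00000003970 (41.7 ± 3.94 CPM) were near their saline levels of 0.0644 ± 0.0985 and 34.4 ± 14.3 CPM. ENSORLG00000018385 was intermediate as well, at 65.5 ± 13.2 CPM untreated, 28.2 ± 6.85 in saline and 125 ± 68.1 under cisplatin. The saline fish here are those that chose the genes, so these levels carry no test.

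The same pattern was tested in fish outside the contrast that chose the genes, of which the wild-type saline fish had entered its fits and shared the estimate of the spread. In wild-type fish, 37 of the 38 falls were higher in saline than in untreated fish, with a median log2 fold change of 1.14, and 31 were called higher where 20.6% of 18373 genes were. All genes had a median of 0.04, and 53.5% of them were higher in saline. Of the 12 rises 11 were tested, 4 higher and 7 lower in saline, with 2 called higher and 3 called lower where 21.1% of all genes were. In transgenic fish, DMSO against untreated gave 32 of 38 falls higher in the dish with a median of 1.10, and 18 called higher against 11.6% of 18623 genes. One fall was called lower, where 14.5% of all genes were, and the 11 rises tested were 6 higher and 5 lower. In wild-type fish DMSO against untreated gave 38 of 38 falls higher, with a median of 1.58, and 35 called higher against 21.1% of all genes. Wild-type DMSO fish 47, with a TMM factor of 0.778 over all 60 libraries, was kept. These comparisons contain vehicle, dish and housing together. They share the untreated wild-type fish or the DMSO fit with each other, so each is given for itself.

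Among the named falls, single genes followed this. ENSORLG00000009297 was higher in DMSO than in untreated transgenic fish by 4.78 on the log2 scale (SE 1.02, adjusted p = 0.0019), ENSORLG00000006161 by 3.89 (SE 0.72, adjusted p = 0.000493) and ENSORLG00000000017 by 2.25 (SE 0.42, adjusted p = 0.000523). ENSORLG00000019009 was not called there (log2 fold change -0.05, SE 0.36, adjusted p = 0.941). Among the 11 rises tested, 3 were called higher in DMSO and 1 lower. ENSORLG00000000284 was the 1 called lower (log2 fold change -0.81, SE 0.24, adjusted p = 0.0145). ENSORLG00000003970 (-0.40, SE 0.17, adjusted p = 0.101) and ENSORLG00000018385 (-1.02, SE 0.38, adjusted p = 0.0568) were not called. In wild-type saline against untreated fish, ENSORLG00000000284 (-1.45, SE 0.20, adjusted p = 0.000181) and ENSORLG00000018385 (-1.32, SE 0.22, adjusted p = 0.000703) were called lower. ENSORLG00000003970 was not called there (-0.38, SE 0.15, adjusted p = 0.0539). Mean CPM of ENSORLG00000018385 in wild-type fish was 98.7 untreated, 40.6 in saline and 105 under cisplatin. ENSORLG00000021053 was not tested. Cisplatin fish, like the vehicle fish, had been kept in a dish.

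**Figure D4:**
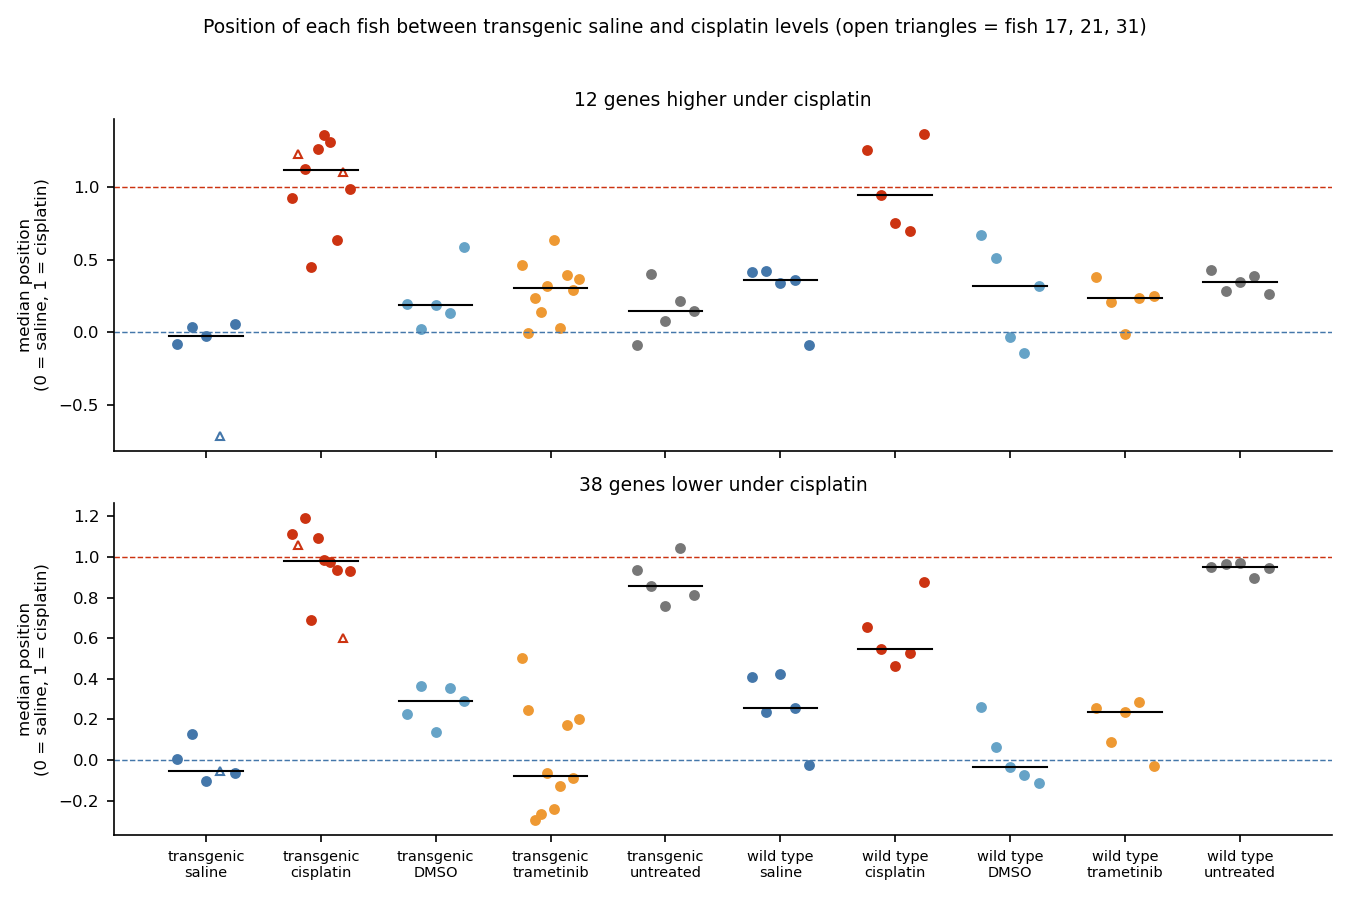
Median position of each of the 60 fish between the transgenic saline level (0) and the transgenic cisplatin level (1) for the 12 genes higher and the 38 genes lower under cisplatin, with a bar at the group median and open triangles for fish 17, 21 and 31. For the falls, untreated fish of both genotypes lie between 0.759 and 1.04 and vehicle fish at 0.422 or less. For the rises, untreated fish lie at 0.430 or less. There DMSO fish reach 0.584 in transgenic and 0.669 in wild-type fish, above the lowest transgenic cisplatin fish (0.451).

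The response of these genes was followed in wild-type fish given the same dose. These fish are in neither group of the contrast that chose the genes, but they entered its fits and share the estimate of the spread, so they are not fully independent of the choice. All 12 rises were higher under cisplatin than in saline there, with a median log2 fold change of 1.09 in the 22-fish fit against 0.02 over all genes, and 8 were called higher where 9.9% of all genes were. Of the 38 falls 33 were lower, with a median of -0.68, and 15 were called lower where 9.93% were. In the 25-fish fit the same wild-type fish gave 34 of 38 falls lower with a median of -0.69 and 12 of 12 rises higher with a median of 1.07. There 4 falls and 2 rises were called, and 14 genes in all (0.0749%), 9 of them higher (0.0482%) and 5 lower (0.0268%). The 10 wild-type fish are the same in both fits, which differ in the transgenic fish that share the spread. On the scale of positions, wild-type cisplatin fish lay at 0.696 to 1.36 for the rises and at 0.465 to 0.875 for the falls, and wild-type saline fish at -0.0853 to 0.420 and -0.0244 to 0.422. The 2 wild-type groups therefore did not overlap for either list.

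By gene, ENSORLG00000000284 was at 1.81, 1.19, 1.28, 0.988 and 1.29 CPM in wild-type saline fish 33 to 37 and at 6.62, 6.37, 3.99, 4.21 and 7.67 in wild-type cisplatin fish 38 to 42. The log2 fold change in the 22 fish was 2.14 (SE 0.22, adjusted p = 2.26e-05), beside 2.40 in transgenic fish, and the difference of 0.27 (SE 0.30, adjusted p = 0.525) was not called. ENSORLG00000000017 was at 7.60, 15.0, 4.86, 12.6 and 11.5 CPM and at 3.52, 4.74, 3.39, 5.29 and 2.21 in the same fish. Its fall of 1.42 on the log2 scale (SE 0.31, adjusted p = 0.00606) was smaller than in transgenic fish by 2.07 (SE 0.42, adjusted p = 0.014). ENSORLG00000019009 also fell further in transgenic fish, with a difference of -1.75 (SE 0.28, adjusted p = 0.0054). Both differences were not called in the 25 fish (adjusted p = 0.515 for each). These genes were picked for their response in transgenic fish, which favours a larger value there.

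The response to cisplatin was compared between genotypes over all genes. With the 25 fish 1 of 18690 genes was called (0.00535%), with 1806 at an unadjusted p under 0.05. This gene, ENSORLG00000009468, was at 18.3, 22.7, 24.3, 30.5 and 29.9 CPM in wild-type saline fish 33 to 37 and rose to 56.9, 65.6, 72.01, 81.3 and 59.3 in wild-type cisplatin fish 38 to 42. In transgenic fish it was at 19.7, 21.1, 34.02, 35.4 and 25.1 CPM in saline fish 14 to 18 and at 11.9 to 26.7 with a median of 15.8 under cisplatin. The wild-type groups were apart and the transgenic groups overlapped. Untreated fish stood at 60.6 ± 37.7 CPM (SD, n = 5) in wild type and 50.3 ± 18.5 (n = 5) in transgenic fish. In transgenic fish the gene was also higher under trametinib than in DMSO (log2 fold change 1.26, SE 0.25, adjusted p = 0.0066). The difference of the log2 responses was -1.999 (SE 0.30, adjusted p = 0.0126), and the call was lost without any 1 of wild-type fish 33, 35 and 41 (adjusted p = 0.0516 to 0.0581).

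Without fish 17, 21 and 31 the difference was called for 3194 of 18725 genes (17.1%), 1520 with the higher and 1674 with the lower response in transgenic fish. Cisplatin called 1854 genes higher and 1859 lower in wild-type fish in that fit, against 29 and 173 in transgenic fish. The 1854 genes had a median log2 fold change of 0.60 in wild-type and -0.10 in transgenic fish, and 571 of them (30.8%) were higher in transgenic fish. The 1859 genes had medians of -0.99 and 0.25, and 260 (14.0%) were lower in transgenic fish. Over all genes of that fit, 53.2% were higher under cisplatin in transgenic fish, with a median of 0.02. Both lists were chosen by the wild-type response, which favours a larger change in wild-type fish. Of the 29 higher genes 27 were also higher and 19 called higher in wild-type fish, and 3 differed between genotypes. Of the 173 lower genes 106 were also lower, 28 were called lower and 5 called higher, and 97 differed. Of all genes, 9.9% were called higher and 9.93% lower in wild-type fish. The 29 and 173 genes were chosen by the transgenic response, which favours a larger change in transgenic fish and touches the counts that differed. In wild-type fish 51.4% of all genes were higher under cisplatin. Among the 50 genes 15 differed, 1 rise and 14 falls, a share that the choice of the genes by the transgenic response also touches.

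Library composition moved with the drug in wild-type fish. In wild-type fish the TMM factors of the 25-library fit were 0.770 to 1.09 under cisplatin and 1.12 to 1.28 in saline, and the 10 most abundant genes took 15.1% to 18.7% of the counts against 11.2% to 13.8%, without overlap. In transgenic fish these shares were 11.7% to 15.4% and 11.4% to 14.6%, which overlap. The part of this in the genotype difference was not tested. Without wild-type cisplatin fish 40, whose factor was the 0.770, the difference was called for 1922 genes.

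**Figure D5:**
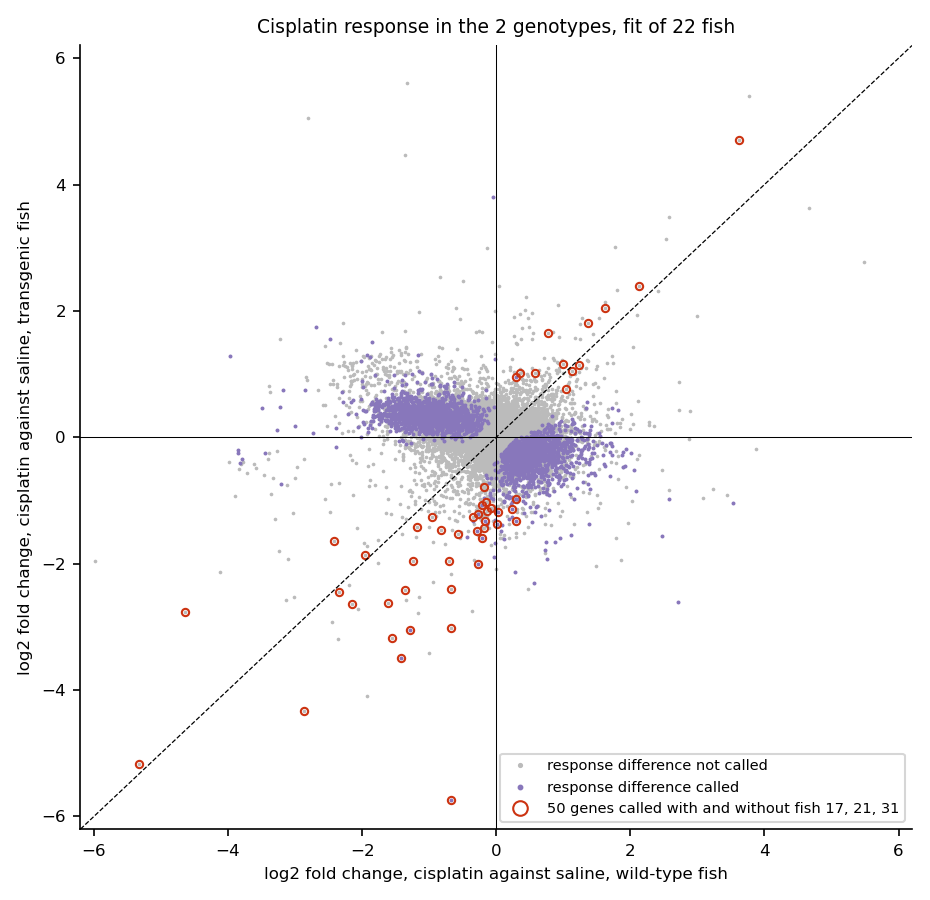
Log2 fold change of cisplatin against saline in wild-type fish (horizontal) and transgenic fish (vertical) for 18725 genes in the fit of 22 fish, with 4 genes outside the axes. Purple points are the 3194 genes whose responses differed between genotypes, and red circles the 50 genes called in transgenic fish with and without fish 17, 21 and 31. The 12 circled rises all lie on the positive side for wild-type fish, and 33 of the 38 circled falls on the negative side.

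The cisplatin response was set beside the trametinib response of transgenic fish, each against its own vehicle. The 50 genes did not move together under trametinib in the direction that cisplatin moved them. Against DMSO the 12 rises were 8 higher and 4 lower with a median log2 fold change of 0.08. The 38 falls were 32 higher and 6 lower with a median of 0.68, where 49.2% of all genes were higher, and 2 of them were called higher against 0.786% of 18693 genes. Without fish 17, 21 and 31, which are not part of the trametinib contrast but share its spread, 8 falls and 2 rises were called higher (5.24% of all genes) and 1 rise lower (2% of all genes). Trametinib fish 63, with a TMM factor of 0.774 over all 60 libraries, was kept in both fits. The responses to the 2 drugs differed for 158 genes (0.845%), 16 with the higher and 142 with the lower value under cisplatin, and for 1056 of 18731 genes (5.64%), 175 and 881, without fish 17, 21 and 31. Of the 50 genes 5 rises and 27 falls were among the 158, from which nothing is read, as the same cisplatin and saline fish chose them.

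The 4 genes named by the rule for the difference between the drugs were ones that trametinib moved. ENSORLG00000013728 was at 14.1, 17.2, 7.70, 5.99 and 13.0 CPM in saline fish 14 to 18 and at 6.10 to 17.4 with a median of 7.68 under cisplatin, which overlap. It stood at 5.50, 7.82, 19.1, 15.8 and 3.41 CPM in DMSO fish 53 to 57 and at 0 to 0.731 with a median of 0.0988 under trametinib. The difference of the log2 responses was 5.37 (SE 0.94, adjusted p = 0.00228), and 5.02 without fish 17, 21 and 31. ENSORLG00000000766 likewise had a median of 18.8 CPM under cisplatin (12.3 to 58.5) and of 20.1 in saline (19.2 to 120, the latter in fish 17), and fell to 0.215 to 1.43 under trametinib from 9.71 to 18.3 in DMSO. Its difference was 3.76 (SE 0.60, adjusted p = 0.00114), 4.70 without saline fish 17 and 4.30 without the 3 fish.

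In the other direction, ENSORLG00000003566 was at 0.213 to 5.38 CPM under cisplatin and 0.197 to 2.15 in saline, and rose to 6.24 to 419 under trametinib from 0.234 to 1.64 in DMSO. The difference of the log2 responses was -7.01 (SE 1.22, adjusted p = 0.00228), -7.68 without cisplatin fish 31 and -7.97 without the 3 fish. ENSORLG00000004104 was at 0 to 0.700 CPM under cisplatin and 0.226 to 2.15 in saline, and at 1.55 to 27.2 under trametinib against 0 to 0.622 in DMSO. Its difference was -6.94 (SE 1.26, adjusted p = 0.00285), -6.57 without the 3 fish, -6.11 without saline fish 17, -8.05 without DMSO fish 57 and -6.31 without trametinib fish 61. None of these 4 genes was called for cisplatin against saline in transgenic fish (adjusted p = 0.433 to 0.901), and all 4 drug differences were called in every setting tried.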

How the data were processed

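Poly-A RNA of 60 whole fish was sequenced, and the authors deposited raw read counts per gene, 1 column per fish, for 20459 Ensembl gene identifiers. The submitters' processing notes list TopHat2 2.2.4 and featureCounts. Build, annotation, strandedness and multi-mapping rules were not given in the sources consulted, which leaves the counts uncertain where genes overlap or have close copies. All 60 columns were matched to samples by name.

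Counts were tested with edgeR 4.0.16 in R 4.3.3 (filterByExpr, TMM scaling, robust quasi-likelihood F test, Benjamini-Hochberg adjustment over all genes tested, calls at an adjusted p under 0.05). The saline and cisplatin fish of both genotypes entered 1 fit, and the drug comparison used the transgenic saline, cisplatin, DMSO and trametinib fish. The test was tried on simulated counts of the same genes. Levels are CPM with TMM factors over all 60 libraries, and fold changes come from the fits. Each SE is the absolute log2 fold change divided by the square root of its F statistic, and was not estimated by the fit directly. Library measures were compared by two-sided exact permutation tests. Total counts of 34788594 to 67018564 set the precision, and limits for counts of 0 use 3 counts and cover counting error only.

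Alternatives were DESeq2 1.42.0, limma-voom with sample weights (limma 3.58.1), RLE size factors, no filter on low counts, 1 CPM in 5 fish, the compared groups alone, all 10 groups, and fish left out. The members, tests and lists were chosen with earlier results of these data known. Named genes had the largest fold change in each direction, at most 2, among calls whose average log2 CPM was 1 or more, first among genes called in both fits and then among other calls without fish 17, 21 and 31. Results for the 12 lists of pathway genes written for this comparison could not be had, as 0 lists had a matched identifier. The vehicle comparisons with untreated fish, the wild-type response in the 22-fish fit and the description of the 50 shared genes were added after the data were seen.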

Additional observations from a re-analysis of the deposited data

Results flagged for a closer look

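Single fish stood far from the rest of their group in 13 of 34 groups of values checked with Dixon's test. Its limits flag about 1 in 20 groups of normally distributed values. CPM were checked untransformed, and most of these genes were chosen in the same fish, so that rate is no benchmark here. The flags are not independent, since 11 of the 13 concern fish 17, 21 and 31, the libraries of low TMM factor. Saline fish 17 was flagged for ENSORLG00000019009 (0.339 CPM from 3 reads, group median 6.35), ENSORLG00000000766 (120 CPM, median 20.1), ENSORLG00000004104 (2.15 CPM, median 0.290) and the number of genes detected (17788, median 19326). Cisplatin fish 21 was flagged for ENSORLG00000021053 (40.8 CPM, median 2.15), ENSORLG00000018385 (286 CPM, median 114), ENSORLG00000000766 (58.5 CPM, median 18.8) and genes detected (17959, median 19289.5). Cisplatin fish 31 was flagged for ENSORLG00000009297 (26.4 CPM, median 5.81), ENSORLG00000000017 (3.54 CPM, median 1.66) and ENSORLG00000004104 (0.700 CPM, median 0.104). Saline fish 18, whose TMM factor was not low, was flagged for ENSORLG00000006161 (23.1 CPM, median 1.72) and ENSORLG00000021053 (0.236 CPM, median 0.0341). The part of composition in these values was not tested.

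ENSORLG00000009468 differed between genotypes in its response to cisplatin, with a log2 response in transgenic fish that was lower by 1.999 (difference -1.999).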

How the results depend on the processing

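No paired analysis was possible because each fish number occurs once and the groups share none. No named gene changed direction under any alternative run. Of the values of named genes under alternatives, 499 stayed on their side of the threshold while 21 lost the call. For other genes the settings were compared here by the number of calls, not by the direction of each gene. The count of 63 genes for cisplatin in transgenic fish became 195 with DESeq2, 553 with limma-voom, 14 with the compared groups alone, 413 with all 10 groups, 202 without fish 17, 21 and 31, and 305 without fish 40 too. With 1 fish left out it ran from 30 (without saline fish 17) to 714 (without cisplatin fish 21), with 33 to 41 without saline fish 16 or cisplatin fish 20, 22, 24, 25, 26 or 32. The 202 of the 22 fish became 417 with DESeq2 and 521 with limma-voom, and 73 (without saline fish 18) to 307 (without cisplatin fish 23), with 75 without saline fish 16. The 1 gene differing between genotypes became 40 with DESeq2, 4362 with limma-voom, 3194 without the 3 fish and 1922 without fish 40 too, and 0 to 3 with 1 fish left out. The 158 genes differing between drugs became 406 with DESeq2, 2781 with limma-voom, 1056 without the 3 fish, and 101 (without DMSO fish 54) to 418 (without cisplatin fish 21) with 1 fish left out. The 3713 wild-type calls in the 22 fish became 14 in the 25 fish, 2259 without fish 40, and 1861 to 3888 with 1 fish left out, and the 8 rises and 15 falls called there became 2 and 4 in the 25 fish. The 31 falls called in wild-type saline were 24 to 30 with 1 fish left out and the 18 in transgenic DMSO 18 to 20. The causes were not tested. Library differences, cisplatin minus saline, ran over single fish left out from -7356990 to -122262 counts, -0.0998 to 0.181 in TMM factor, -0.280 to 0.514 percentage points in the 10 most abundant genes and -193.3 to 243.778 genes detected. The last 3 thus changed sign, and no library difference passed its test.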
